A study of Mus musculus with 8 samples.

Results

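The 3 metallothionein genes expressed in brain (*Mt1*, *Mt2* and *Mt3*), the zinc sensing transcription factor gene *Mtf1* and the zinc exporter genes *Slc30a1* and *Slc30a3* were followed across the cingulate cortex of wild-type (WT) and *Mvp* knockout (KO) male mice. The set was chosen by the *Mt3* level in these same samples, which separated the genotypes, so the genotype difference of *Mt3*, and of the genes chosen with it, is given as a description and not as a test. All 6 were found among the 53379 genes of the count table, and all 6 passed the filter on low counts that left 16914 genes for testing. The samples were 4 WT and 4 *Mvp* KO, untreated, each a bulk RNA sequencing library of poly(A) RNA, in which reads assigned to each gene were counted. The KO allele, written *Mvp*-/- in the study's methods, is a gene trap on a C57BL/6 background: a cassette with a splice acceptor and a polyadenylation signal sits in the first intron of *Mvp*, which encodes the major vault protein, and acts in every cell of the body. The WT mice are *Mvp*+/+, and the age of the mice is not given in the sources used here.

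Metallothioneins are small, cysteine-rich proteins that bind zinc and copper, buffer the free metal of the cell and take up reactive oxygen species. When free zinc rises, the zinc finger factor MTF1 binds metal response elements in the promoters of *Mt1*, *Mt2* and *Slc30a1* and raises their transcription, whereas *Mt3*, first described as a growth inhibitory factor of the brain, responds little to metals. In the cortex *Mt1* and *Mt2* are made mainly by astrocytes and *Mt3* by astrocytes and neurons. *Slc30a1* encodes ZnT1, the zinc exporter of the plasma membrane, and *Slc30a3* encodes ZnT3, which loads zinc into the synaptic vesicles of a subset of glutamatergic neurons.

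The libraries held between 28456504 and 42854368 counts. *Mvp* was read in every library, at 6.83 ± 1.0 CPM (counts scaled to a common library size) in WT and 1.63 ± 0.334 CPM in *Mvp* KO (SD, n = 4 each), so the KO libraries held 24.0% of the WT level. The paper reports a complete loss of *Mvp* in its cingulate transcriptome, and a loss of function of the allele in transcript and protein. Counts per gene do not show where in the trapped locus the remaining reads lie. *Mvp* was the single gene to pass an adjusted p of 0.05, with an adjusted p of 0.0162 (edgeR quasi-likelihood F test, Benjamini-Hochberg), and 1 of 16914 genes is 0.00591%. Its log2 fold change stayed between -2.22 and -1.99 when a sample was left out, but the call was lost in 6 of the 8 fits of this kind and with a block for the replicate number (adjusted p = 0.0850 in edgeR). The DESeq2 Wald test called 2 of 16835 genes, or 0.0119%. WT replicate 4 stood apart from the other 7 libraries. It lay at 71.5 on the first principal component where the others lay between -20.4 and -2.78, and all 12 neuronal activity genes examined were highest in it. Its TMM scaling factor, which corrects the library size for composition, was 0.907 against 0.994 to 1.05 in the others, and 61.7% of all tested genes had their highest or lowest value in it. Its weight in each of the 6 genes is therefore given beside the result. The study's methods describe the replicates as biological, and the labels number them without tying them to animals.

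The metallothioneins lie next to each other. On the GRCm38 build *Mt3* covers chr8:94152607-94154146, *Mt2* chr8:94172664-94173568 and *Mt1* chr8:94179082-94180327, all on the plus strand and within 27.7 kb, and *Mt4*, the metallothionein of stratified epithelia, precedes them at chr8:94137197-94139031. *Slc30a1* lies at chr1:191906767-191913247 and *Mtf1* at chr4:124802104-124849800, both on the plus strand, and *Slc30a3* at chr5:31086106-31108237 on the minus strand. RefSeq windows of 300 bases, from 250 before to 50 after an annotated start, were matched for all 6 genes, with 2 windows for *Slc30a3*. They were searched on both strands for the core of the metal response element, spelled TGCACNC or TGCGCNC. *Mt1* and *Mt2* held 3 and 4 cores, *Slc30a1* held 2, and *Mt3*, the gene for which the set was picked, held 1, which lay after the RefSeq start. The first window of *Slc30a3* held 1 core, its second window 0, and the *Mtf1* window 0. Among the other zinc exporter genes, *Slc30a4* and *Slc30a10* also held 3 each and *Slc30a2* held 2. Among 32851 RefSeq windows of this length, 25.7% held at least 1 core, 7.11% at least 2, 1.97% at least 3 and 0.517% at least 4. The stretches upstream of the first annotated start are shown for the metallothioneins and *Slc30a1* to place the cores, with each core in capitals (GRCm38.p6, plus strand, chr8:94178839-94179081 for *Mt1*, chr8:94172368-94172617 for *Mt2*, chr8:94152357-94152606 for *Mt3* and chr1:191906531-191906766 for *Slc30a1*).
Mt1: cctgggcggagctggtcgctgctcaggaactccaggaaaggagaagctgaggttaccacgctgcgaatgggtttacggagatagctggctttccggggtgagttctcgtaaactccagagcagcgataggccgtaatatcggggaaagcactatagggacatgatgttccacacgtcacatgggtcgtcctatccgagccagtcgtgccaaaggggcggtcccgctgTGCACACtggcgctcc
Mt2: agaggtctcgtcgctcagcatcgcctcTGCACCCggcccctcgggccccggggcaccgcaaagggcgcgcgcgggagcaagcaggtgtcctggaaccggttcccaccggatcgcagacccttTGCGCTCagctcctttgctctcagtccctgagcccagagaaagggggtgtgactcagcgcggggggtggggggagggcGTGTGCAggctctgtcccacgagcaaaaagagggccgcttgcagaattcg
Mt3: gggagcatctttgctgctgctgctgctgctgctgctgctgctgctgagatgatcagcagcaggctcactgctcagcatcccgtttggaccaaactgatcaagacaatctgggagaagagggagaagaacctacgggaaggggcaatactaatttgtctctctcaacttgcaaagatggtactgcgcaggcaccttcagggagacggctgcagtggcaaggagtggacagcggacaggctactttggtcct
Slc30a1: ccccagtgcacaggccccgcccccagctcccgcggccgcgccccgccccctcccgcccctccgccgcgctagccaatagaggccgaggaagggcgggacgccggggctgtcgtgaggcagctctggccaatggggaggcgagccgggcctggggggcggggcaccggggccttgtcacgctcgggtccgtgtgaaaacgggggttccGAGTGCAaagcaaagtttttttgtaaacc
The *Mt2* stretch carried 3 cores, the *Mt1* and *Slc30a1* stretches 1 each and the *Mt3* stretch none. GENCODE also annotates *Mt1* transcripts that start further downstream, at chr8:94179211 and chr8:94179241, and the bases just before those starts lie after the end of the *Mt1* window at chr8:94179138. *Mt2*, *Mt3* and *Slc30a1* likewise have GENCODE starts after their window ends, at chr8:94172860, chr8:94152746 and chr1:191907256. The bases just before these were not searched either. In *Mt1*, *Mt2*, *Mt3* and *Slc30a1* alike, the cores after the RefSeq start lie before these downstream GENCODE starts. A match is a match of letters and not a measured binding site.

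**Figure D1:**
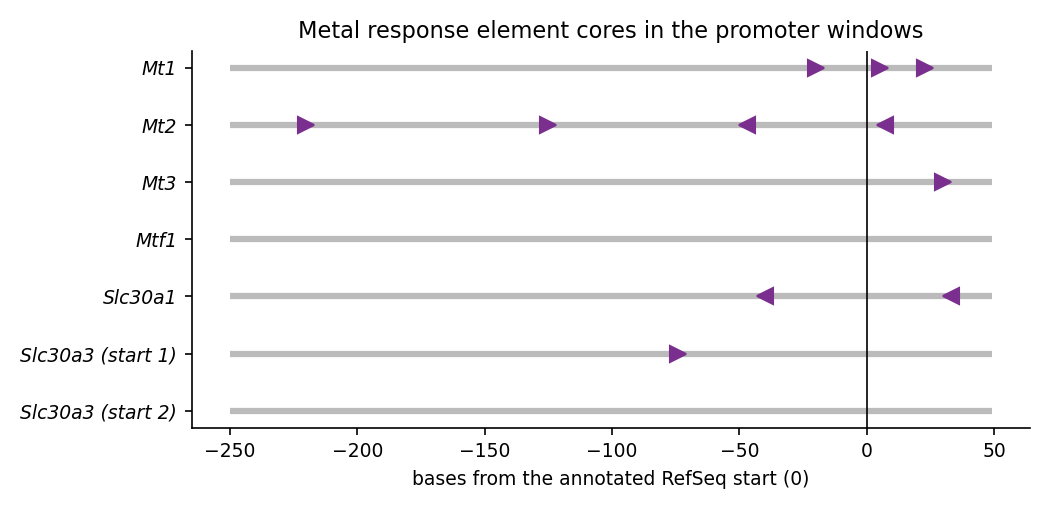
Positions of metal response element cores (triangles, pointing along the strand that carries them) in the RefSeq promoter windows of the 6 genes, in bases from the annotated start at 0. *Mt2* has 4 cores and *Mt1* has 3, *Mt3* has 1 after the RefSeq start, and *Mtf1* and the second start of *Slc30a3* have none.

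*Mt3* encodes the metallothionein enriched in the central nervous system. Its level was 82.7, 97.4, 91.8 and 78.5 CPM in WT replicates 1 to 4, and 77.7, 66.0, 68.3 and 69.2 CPM in KO replicates 1 to 4. The genotypes did not overlap, but the lowest WT sample (replicate 4, 78.5 CPM) and the highest KO sample (replicate 1, 77.7 CPM) were only 0.836 CPM apart. The means were 87.6 ± 8.56 and 70.3 ± 5.12 CPM (SD, n = 4 each), a log2 fold change of -0.32 (SE 0.0866), so the KO level was 80.2% of WT. Without WT replicate 4 the log2 fold change was -0.36. The separation depended on the scaling of the libraries. With DESeq2 size factors the gap was 2.98 CPM. With the plain library totals *Mt3* fell to 71.1 CPM in WT replicate 4 and rose to 81.6 CPM in KO replicate 1, and the genotypes overlapped by a difference of -10.4 CPM. Those samples narrowed the gap: on the TMM scale it was 5.00 CPM without WT replicate 4 and 9.35 CPM without KO replicate 1. In a bulk sample, fewer cells of a type and less RNA per cell cannot be told apart.

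*Mt1*, a metal-induced metallothionein, was at 55.7, 63.7, 63.4 and 58.6 CPM in the WT replicates and at 50.5, 47.6, 58.7 and 48.3 CPM in the KO replicates. Of the KO samples, 3 were below every WT sample and KO replicate 3 lay inside the WT range. The log2 fold change was -0.24 (SE 0.0847), and -0.25 without WT replicate 4, and the KO level was 84.9% of WT. *Mt2*, the gene paired with *Mt1* in metal responses, was at 45.8, 45.7, 53.9 and 41.9 CPM in WT and at 37.2, 35.2, 46.0 and 41.2 CPM in KO. Its genotypes overlapped as well, again with KO replicate 3 the highest KO sample. The log2 fold change was -0.23 (SE 0.106), and -0.28 without WT replicate 4, with a KO level of 85.2% of WT. On the TMM scale and without KO replicate 3, none of the 3 metallothioneins overlapped between genotypes. In that direction 1.59% of all tested genes were separated, and each of the other 7 samples left out in turn separated *Mt3* alone. For *Mt2* the margin was narrow, with 41.9 CPM in WT replicate 4 and 41.2 CPM in KO replicate 4. With plain library totals and KO replicate 3 left out, *Mt2* overlapped (38.0 CPM in WT replicate 4, 41.2 CPM in KO replicate 4). *Mt3* overlapped too, at 71.1 CPM in WT replicate 4 and 81.6 CPM in KO replicate 1. For *Mt2*, 73.5% of the exonic bases lie opposite *Gm45774*, an antisense gene that had at most 7 counts in any library, against at least 1173 for *Mt2*. Of the stretches of 50 bases in *Mt2* transcripts, 45.8% also occur in those of *Gm45774*, whereas *Mt1* and *Mt3* shared none with another gene.

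The 3 metallothioneins added up to between 179 and 209 CPM in WT and between 149 and 173 CPM in KO. The proportions among them overlapped between genotypes, with no test of a difference. The ratio of *Mt1* to *Mt2* reads was 1.18 to 1.40 in WT and 1.17 to 1.36 in KO, the ratio of *Mt3* to *Mt1* reads 1.34 to 1.53 and 1.16 to 1.54, and the ratio of *Mt3* to *Mt2* reads 1.70 to 2.13 and 1.48 to 2.09. The mean ratio of *Mt3* to *Mt1* was 1.45 in WT and 1.38 in KO, and that of *Mt3* to *Mt2* was 1.88 and 1.78. Across the 8 samples, *Mt1* and *Mt2* had a Pearson correlation of 0.833 on the log2 CPM scale, *Mt3* and *Mt1* of 0.769 and *Mt3* and *Mt2* of 0.631, as descriptions over samples that share the genotype contrast. Of the 14412 other genes with at least 1 CPM on average, *Mt2* was the 22nd most like *Mt1*, and *Mt1* the 85th most like *Mt3*.

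*Mtf1*, the transcription factor gene, was at 35.2, 34.5, 36.0 and 50.9 CPM in WT and at 30.6, 31.9, 36.5 and 38.1 CPM in KO. The WT replicates 1 to 3 lay within the KO range and WT replicate 4 lay above all other samples. The log2 fold change of -0.19 (SE 0.136) came to -0.04 without WT replicate 4. *Slc30a1*, the plasma membrane exporter gene and an MTF1 target, was at 55.2, 56.2, 47.5 and 92.2 CPM in WT and at 55.0, 59.1, 49.3 and 52.9 CPM in KO. WT replicate 4 was again the highest sample, at 1.68 times the median of the other 7, and the remaining samples of both genotypes shared one range. The log2 fold change was -0.21 (SE 0.186) with all samples and 0.03 without WT replicate 4, so its sign turned on that sample. *Mtf1* and *Slc30a1* also share sequence with antisense neighbours: 7.55% of the stretches of 50 bases of *Mtf1* occur in *1110065P20Rik*, and 8.01% of those of *Slc30a1* in *1700034H15Rik*.

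*Slc30a3*, the vesicular zinc transporter gene, was at 119.7, 145.0, 133.4 and 89.1 CPM in WT and at 109.3, 117.9, 132.3 and 132.0 CPM in KO. Here WT replicate 4 was the lowest of the 8 samples, and the other 3 WT samples overlapped with the KO samples. The log2 fold change was 0.01 (SE 0.141), with a 95% interval from -0.30 to 0.33, and was -0.11 without WT replicate 4. The exporters thus moved in opposite directions in that library. The ratio of *Slc30a1* to *Slc30a3* reads reached 1.04 there. It lay between 0.356 and 0.462 in the other WT samples and between 0.372 and 0.503 in the KO samples. The correlation of the exporters over the 8 samples was -0.84, with WT replicate 4 the highest for *Slc30a1* and the lowest for *Slc30a3*. In contrast, *Mt1*, *Mt2* and *Mt3* in WT replicate 4 all lay inside the range of the other 7 samples.

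**Figure D2:**
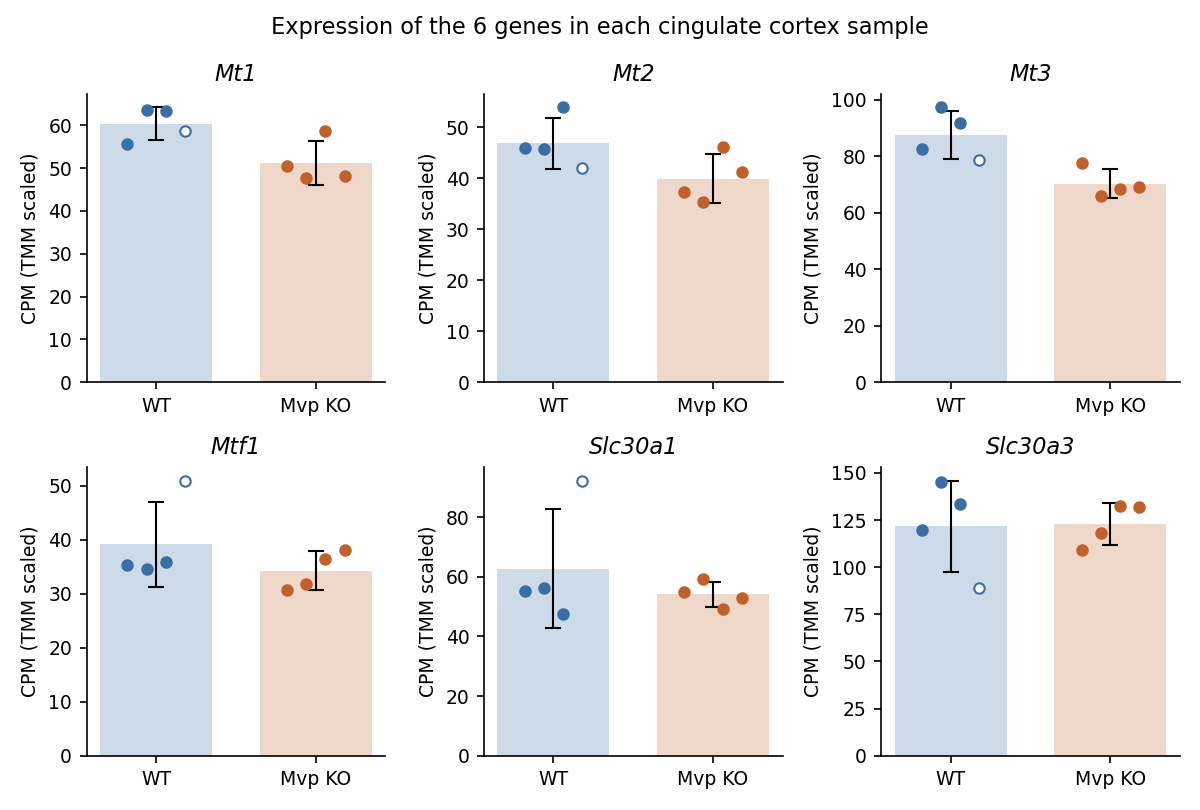
Level of each of the 6 genes in CPM (TMM scaled) in the 4 WT and 4 *Mvp* KO samples; points are samples, WT replicate 4 is the open point, bars are means and error bars are SD. *Mt3* shows the gap of 0.836 CPM between genotypes, *Mt1* and *Mt2* overlap through KO replicate 3, and WT replicate 4 is highest for *Mtf1* and *Slc30a1* and lowest for *Slc30a3*.

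By the quasi-likelihood F test of edgeR, adjusted by Benjamini-Hochberg over all genes, 0 of the 6 genes passed 0.05, where 0.00591% of all tested genes did, and the DESeq2 Wald test called 0 of the 6, where it called 0.0119% of genes. At an unadjusted p under 0.05 there were 2 of the 6, *Mt1* and *Mt3*, against 1.56% of all tested genes, and limma voom called 0 after adjustment. Because *Mt3* chose the set, nothing is read from these counts. Of the 6 log2 fold changes, 5 were below 0, with a median of -0.22, where 50% of all tested genes were below 0. Without WT replicate 4, 5 of the 6 were still below 0, with *Slc30a1* above in place of *Slc30a3*, and the median was -0.18. The genotypes did not overlap for 1 of the 6 genes, *Mt3*, and 0.692% of all tested genes were separated in that direction, 0.828% in the other and 1.52% in either. Without WT replicate 4 it was again *Mt3* alone, against 1.5% of all tested genes, and the loss of a sample cannot make separated genotypes overlap.

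Levels between genes were compared per length, as CPM per kilobase of annotated exon. *Mt2* and *Mt3* stood highest of the 24 zinc handling genes tested, with medians over the 8 samples of 74.5 and 73.3, followed by the importer gene *Slc39a10* at 65.7, and the ranges of neighbours among these 3 overlapped. *Mt1* at 45.9 and *Slc30a3* at 44.4 came next and overlapped with each other, below the range of *Slc39a10* and above that of *Slc30a4*, the sixth gene at 19.6. Each length joins the exons of all annotated transcripts of a gene, so the places of *Mt2* and *Mt3* depend on their lengths of 588 and 1066 bases. The annotated exons of *Mt1* together cover its whole locus of 1246 bases, so its length may be overstated and its place is uncertain. *Mt1* had more reads than *Mt2* in every sample, at a ratio of 1.17 to 1.40. *Slc30a1* was the 11th at 10.5, and *Mtf1* the 19th at 4.0, and each overlapped with both neighbours in the order.

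**Figure D3:**
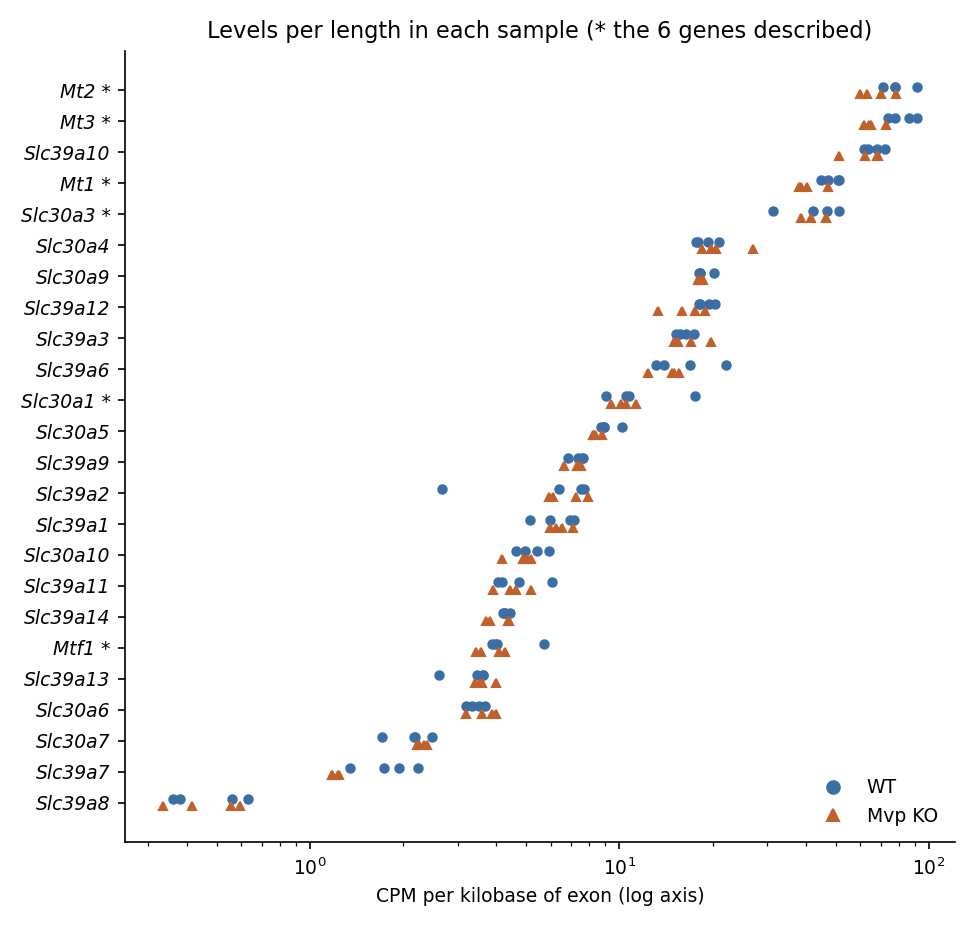
CPM per kilobase of exon on a log axis for the 24 tested zinc handling genes in order of their median, with WT samples as circles and *Mvp* KO samples as triangles; asterisks mark the 6 genes described. *Mt2* and *Mt3* are at the top with medians of 74.5 and 73.3, and *Mtf1* is the 19th with 4.0.

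The rest of the zinc handling system was read from lists of the remaining metallothionein, the SLC30 exporters and the SLC39 (ZIP) importers, 23 genes in all. Of these, 18 passed the filter. *Mt4* had 0 counts in every library, and *Slc30a2*, *Slc30a8*, *Slc39a4* and *Slc39a5* had between 0 and 24 counts in a library. By the same edgeR test 0 of the 18 genes passed 0.05, with 0.00591% of all genes called, and 1 had an unadjusted p under 0.05. DESeq2 and limma voom called 0 as well. The median log2 fold change was -0.03, with 11 genes below 0 and 7 above. Among the other exporters, the fold changes ran from -0.13 for *Slc30a5*, a transporter of the secretory pathway, to 0.18 (SE 0.119) for *Slc30a4*, where KO replicate 2 reached 148 CPM and the other KO samples stood at 102 to 113. Without that sample the *Slc30a4* value was 0.05, and without WT replicate 4 the *Slc30a5* value was -0.07. Among the importers they ran from -0.58 for *Slc39a7* to 0.16 for *Slc39a2*, which came to -0.08 without WT replicate 4.

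*Slc39a7*, which encodes the ZIP7 importer of the endoplasmic reticulum, was at 3.48, 5.02, 4.49 and 5.78 CPM in WT and at 3.22, 3.05, 3.05 and 3.19 CPM in KO. The genotypes did not overlap, as for 0.692% of tested genes in that direction, but the gene did not pass the adjusted threshold in edgeR's quasi-likelihood test (adjusted p = 0.969). Its value is uncertain, since 80.7% of its exonic bases are shared on the same strand with *Gm20427*. *Slc39a12*, an importer gene of astrocytes, had a log2 fold change of -0.21 (SE 0.107), with KO replicate 1 the lowest at 39.8 CPM and the WT samples at 54.1 to 61.2 CPM, and was -0.12 without that KO sample. *Slc39a10*, the most abundant importer, was at 405 ± 28.6 CPM in WT and 381 ± 49.02 CPM in KO (SD, n = 4 each), a log2 fold change of -0.09 (SE 0.103).

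**Figure D4:**
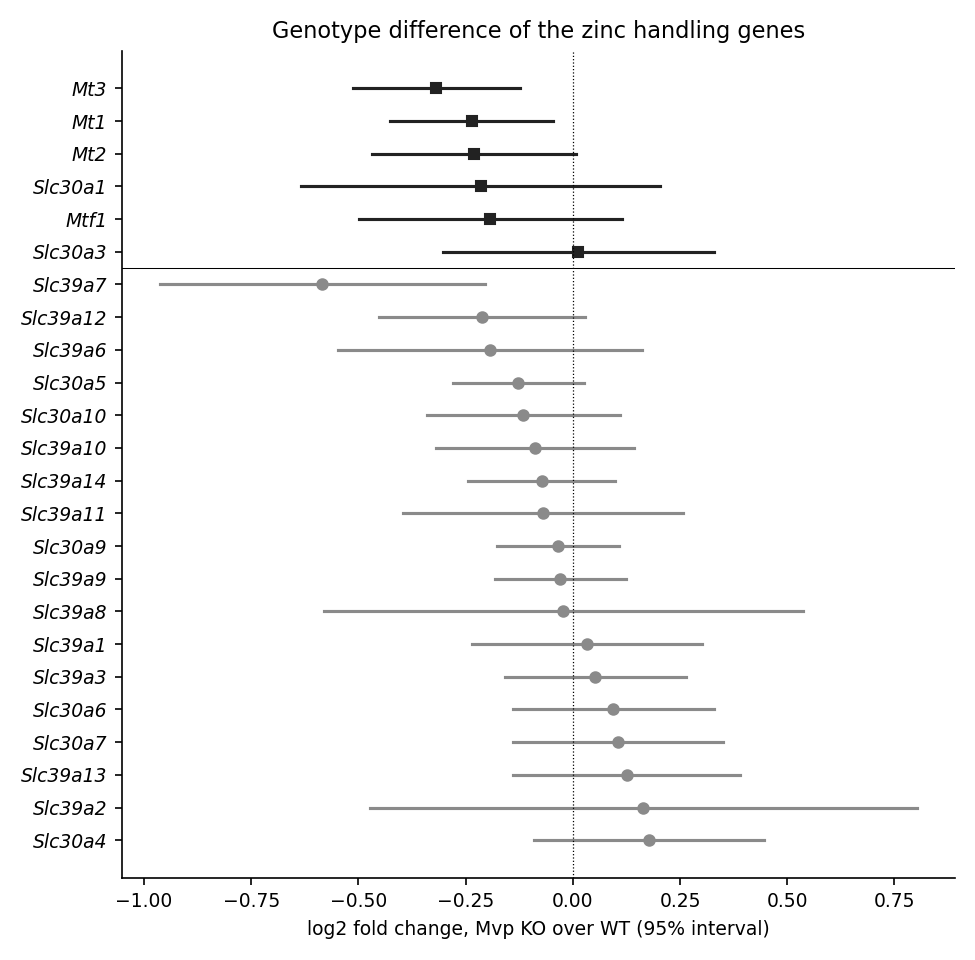
Log2 fold change of *Mvp* KO over WT with its 95% interval for the 6 genes (squares, above the line) and the 18 other tested zinc handling genes (circles, below it). The intervals of *Mt3*, *Mt1* and *Slc39a7* lie below 0, and 0 of the 24 genes passed the adjusted threshold.

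WT replicate 4 was the highest of the 8 samples for 8 of the 24 zinc genes and the lowest for 6. Of all tested genes 29.2% were highest and 32.5% lowest there, so the 14 of 24 are set against 61.7%. The widest departure was in *Slc39a2*, an importer gene, at 9.18 CPM in WT replicate 4 and 20.4 to 27.2 CPM in the other samples. *Mt3* and *Mt1* had their highest values in WT replicate 2, and *Mt2* in WT replicate 3. WT replicate 4 was still the lowest WT sample for *Mt2* (41.9 CPM) and *Mt3* (78.5 CPM).

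**Figure D5:**
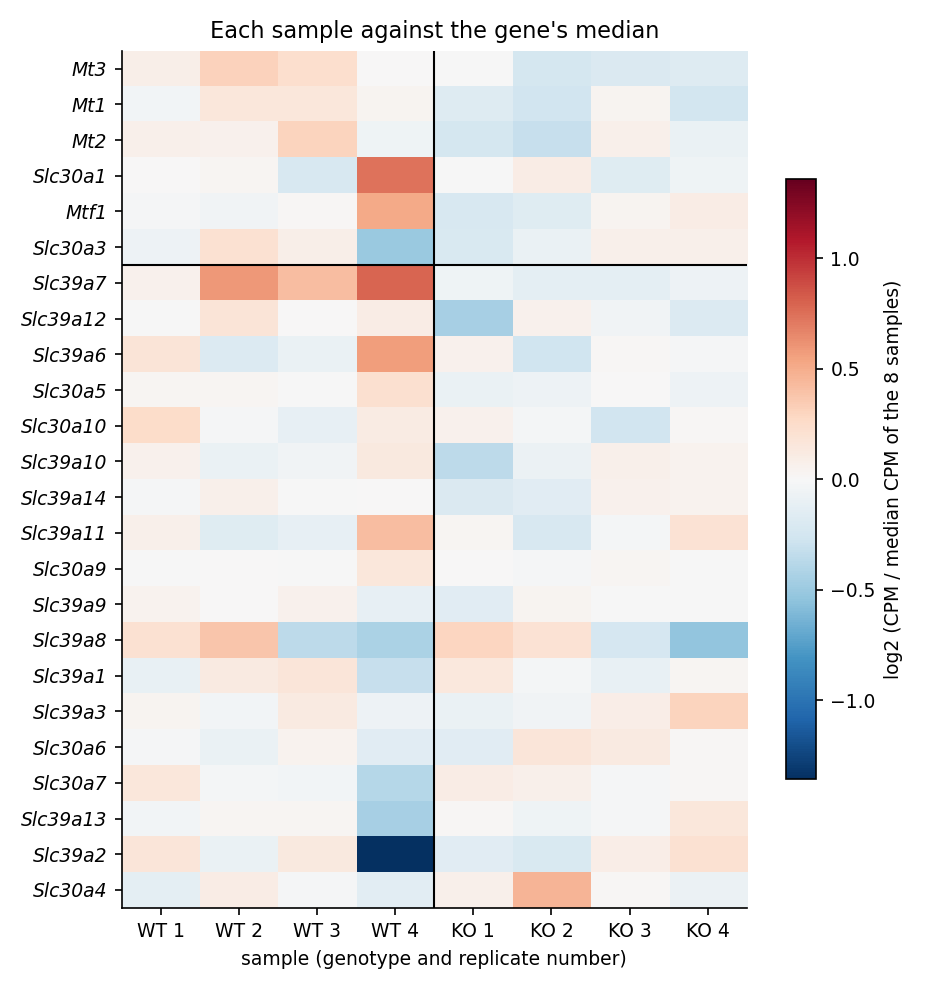
Each sample's CPM against the gene's median over the 8 samples, on a log2 color scale, for the 6 genes (above the line) and the 18 other zinc handling genes. WT replicate 4 holds the highest or lowest value in 14 of the 24 genes, whereas the 3 metallothioneins are mostly above the median in WT and below it in *Mvp* KO.

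The genes around the metallothionein cluster were examined because the members are neighbours. Within 250 kb of the *Mt3* start, 8 other genes were tested. Their log2 fold changes ran from -0.26 (SE 0.187) for *Nup93*, a nuclear pore gene, to 0.18 (SE 0.0931) for *Nudt21*, an RNA processing gene, with 3 below 0 and a median of 0.02, and 0 of the 8 passed the threshold. Without WT replicate 4 the *Nup93* value was -0.02.

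The genes most like each member over the 8 samples were taken from 14413 genes with a mean of at least 1 CPM. For *Mt3* these were *Rpl35a* (Pearson's r = 0.978), *Abhd1* (0.930), *Rps15* (0.928), *Rplp2* (0.927) and *Atp5k* (0.925). *Rpl35a*, *Rps15* and *Rplp2* encode ribosomal proteins and *Atp5k* a subunit of the mitochondrial ATP synthase. *Rpl35a* was at 19.0, 23.6, 22.9 and 18.5 CPM in WT and at 19.4, 15.7, 15.7 and 15.4 CPM in KO, with KO replicate 1 inside the WT range, the same sample that was the highest KO sample for *Mt3*. The log2 fold changes of these genes were -0.34 for *Rpl35a*, -0.16 for *Abhd1*, -0.24 for *Rps15*, -0.37 for *Rplp2* and -0.34 for *Atp5k*, and none passed the adjusted threshold. For *Mt1* the closest was *Cope*, a subunit of the coatomer (0.972), followed by *Wfdc3*, *Polr2j*, *Gm4204* and *Txnrd3*. For *Slc30a3* the closest was *Rpusd1* (0.981), followed by *2900060N12Rik*, *Clcn2*, *Taco1* and *Ccbe1*. These likenesses rest on 8 libraries with a shared genotype contrast and, for *Slc30a3*, on the low value in WT replicate 4.

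Metallothioneins are read from astrocytes in large part, so markers of that cell type were placed beside them. All 10 astrocyte markers and all 10 excitatory neuron markers were detected. The summed level of the astrocyte markers was 5808 to 6160 CPM in WT and 5004 to 5902 CPM in KO, and the genotypes overlapped. Of the 10 markers, 8 were below 0, with a median log2 fold change of -0.10, and 0 passed the threshold. Of the other cell types, 8 of 10 excitatory neuron markers (median -0.09), 6 of 6 microglia markers (-0.10), 6 of 6 endothelial markers (-0.08) and 6 of 6 interneuron markers (-0.34) were also below 0. Without WT replicate 4 these medians were -0.12 for astrocytes, -0.02 for excitatory neurons, -0.09 for microglia, -0.17 for endothelium and -0.10 for interneurons. *Aldoc*, a glycolytic enzyme gene of astrocytes, was the lowest of the 10 astrocyte markers at -0.17 (SE 0.0745). It was the 1 astrocyte marker whose genotypes did not overlap, as for 0.692% of all tested genes in that direction. *Sst*, an interneuron marker at -0.52 (SE 0.196), was separated in that direction as well. *Gfap* was the highest astrocyte marker at 0.13 (SE 0.258), but at -0.15 without KO replicate 1. KO replicate 1 had the lowest astrocyte sum, at 5004 CPM, of which *Slc1a2* alone made up 2977 CPM. The markers differed in that sample. It was the lowest of the 8 samples for *Slc1a2*, *Aldh1l1*, *Gja1*, *Aldoc* and *Fgfr3*, and the highest for *Gfap* (126 CPM) and *S100b* (121 CPM). The part of astrocyte content in the metallothionein levels was not tested. Oligodendrocyte markers summed to 1311 to 2775 CPM in WT and to 1513 to 5608 CPM in KO, with KO replicates 1 and 2 at 5608 and 3832 CPM. Of these markers, 7 of 7 had a log2 fold change above 0 with a median of 0.67, or 0.52 without WT replicate 4. They ran from 0.53 (SE 0.400) for *Cldn11* to 0.81 (SE 0.471) for *Mobp*. Without KO replicate 1 these ends were 0.15 and 0.30. Their part was not tested either.

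Other responses in which metallothioneins take part showed no gene past the threshold in edgeR's quasi-likelihood test. Among 10 copper handling genes the median log2 fold change was -0.02, from -0.20 for the copper chaperone gene *Atox1* to 0.25 for *Slc31a2*, which was 0.05 without WT replicate 4. Among 9 genes of the oxidative stress response the median was -0.05, from -0.31 for *Srxn1* to 0.09 for *Slc7a11*. *Srxn1* was at 228 CPM in WT replicate 4 and at 107 to 131 CPM in the other samples, and without that library the values were -0.0089 for *Srxn1* and -0.09 for *Slc7a11*. Among 8 glucocorticoid responsive genes, a class to which *Mt1* and *Mt2* belong, it was -0.09, from -0.96 (SE 0.489) for *Cdkn1a* to 0.10 for *Nfkbia*. *Cdkn1a* was at 191 CPM in WT replicate 4 and at 25.5 to 59.5 CPM in the other samples, and without that library the values were -0.19 for *Cdkn1a* and -0.07 for *Nfkbia*. Of the 9 partners of synaptic zinc, 8 were tested, with a median of 0.01, from -0.28 for *Slc17a7*, the vesicular glutamate transporter gene of the neurons that use *Slc30a3*, to 0.54 for *Slc17a6*. The *Slc17a6* value rested on KO replicate 2, which stood at 38.9 CPM while the remaining KO samples lay between 12.4 and 14.3 CPM, and was -0.02 without it. For *Slc17a7*, WT replicate 4 stood at 2731 CPM where the other samples lay between 1335 and 1678 CPM, the opposite direction to *Slc30a3* in that library, and its log2 fold change was -0.02 without it.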

How the data were processed

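Male *Mvp* KO and WT cingulate cortex was measured in 4 libraries per genotype. The authors made stranded poly(A) libraries, left out RNA with an integrity number under a set minimum, trimmed reads with cutadapt 1.10, removed ribosomal reads with Bowtie2 2.2.8, aligned to mm10 with STAR 2.5.3a and counted with HTSeq 0.6.1p1 (versions per the labels), and deposited raw counts per Ensembl gene. The strand setting of the counting is not given in the sources used here, so reads of a gene and its antisense partner may not be separated. Reads spread over identical copies are likewise uncertain.

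The members and lists were chosen with earlier results of these data known. Genes were named by a rule: all members, any other zinc handling gene, the 5 genes most like *Mt3*, *Mt1* and *Slc30a3*, the ends of each list, and genes near *Mt3*. *Slc17a7*, *Slc39a12*, *Slc39a10* and *Slc39a2* samples were described after their values were seen. Symbols, loci and exonic lengths came from GENCODE vM21 on GRCm38, which held 53274 of the 53379 identifiers. Counts were fitted in R 4.3.3 with edgeR 4.0.16 (filterByExpr with a minimum count of 10 and total of 15, TMM factors, robust quasi-likelihood, genotype as the only term), with Benjamini-Hochberg adjustment over 16914 genes and a threshold of 0.05. SE is the absolute log2 fold change over the root of F. CPM uses the TMM library sizes, and log2 CPM for likeness adds a prior count of 2. Alternatives were DESeq2 1.42.0 size factors and Wald test, limma 3.58.1 voom with sample quality weights, other filters, a fit with non-robust dispersions, a block for replicate numbers, and each sample left out. Total counts as library sizes, the ends of each list with a sample left out, and the gap of *Mt3* under other scalings, were added after seeing the data. Totals of 28456504 to 42854368 counts gave each member 1086 to 6295 counts per library.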

Additional observations from a re-analysis of the deposited data

Results flagged for a closer look

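In 48 groups of 4 samples (24 zinc handling genes in 2 genotypes), 4 had a sample far from the other 3 by Dixon's criterion, where 2.4 would be flagged by chance. All 4 were WT replicate 4. *Mtf1*, the metal-sensing factor gene, was at 50.9 CPM there and at 34.5 to 36.0 CPM in the other WT samples. *Slc30a5* was at 74.4 CPM against 63.7 to 65.2 CPM, and *Slc30a9* was at 251 CPM against 224.0 to 226 CPM. *Slc39a13*, an importer gene, was low, at 12.7 CPM against 16.9 to 17.7 CPM. *Slc30a1* at 92.2 CPM and *Slc30a3* at 89.1 CPM in the same library did not meet the criterion.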

How the results depend on the processing

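Of 154 alternative values over 10 results, 139 kept their direction and their side of the threshold, 8 moved and 7 reversed. The 139 include the leave-out gaps of *Mt3*, which could not have reversed. In every alternative 0 of the 6 genes and 0 of the 18 other zinc handling genes passed. The count over all genes was 1 (*Mvp*), and was 2 with the DESeq2 Wald test, 0 with the replicate block and 0 to 1 when a sample was left out. Deviations of same-numbered samples correlated at 0.0548, 0.287, -0.0067 and 0.0507 for numbers 1 to 4. These values cannot settle whether same-numbered samples were paired, and the labels give only a number. *Mt3* kept its direction, from -0.39 to -0.27 under other fits and from -0.37 (without KO replicate 1) to -0.26 (without WT replicate 2) when a sample was left out. The *Mt3* gap was -10.4 CPM with total counts, which lower WT replicate 4 and raise KO replicate 1, and 0.836 to 9.35 CPM when a sample was left out. Leaving out a sample can only keep or widen a gap between separated genotypes, so the leave-out gaps could not turn negative. The leave-out direction of *Mt3*, for which the set was picked, was likewise set by that separation, and neither shows stability. Total counts moved the median of all genes to 0.05. *Slc30a1* was 0.0080 with limma voom, and -0.33 (without WT replicate 3) to 0.033 (without WT replicate 4) when a sample was left out. *Slc30a3* was -0.047 with limma voom, and -0.11 (without WT replicate 4) to 0.11 (without WT replicate 2), with -0.02 without KO replicate 3 or 4. The cause was not tested. The median SE of a log2 fold change over all tested genes was 0.140 with 4 samples per genotype, and the common coefficient of biological variation was 18.3%.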
